A study of Mus musculus with 8 samples.

Results

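The genes of the sine oculis homeobox, eyes absent and dachshund families considered here were Six2, Six4, Six5, Eya1, Eya2, Eya3, Eya4 and Dach1, 8 of the 21938 protein-coding genes annotated on the assembled mouse chromosomes. They were picked by name from these families, with earlier results of the same data known, and 3 further family genes (Six3, Six6 and Dach2) are given apart from them as relatives. Acetylation of lysine 56 of histone H3 (H3K56ac) was mapped by ChIP-seq, in which chromatin is immunoprecipitated and sequenced, in muscle stem cells (MuSCs), which were sorted by flow cytometry from C57BL/6 mice and used without culture. For the figure that shows these data, the study states that the mice were male. Control mice are called wild type in parts of the study, and elsewhere its controls for Sirt6mKO mice carry floxed Sirt6 alleles without Cre. Sirt6mKO mice carried floxed Sirt6 alleles with a Cre recombinase expressed from the Pax7 locus. In them the deacetylase SIRT6 was lost from the muscle lineage and not from MuSCs alone. The labels give 2 H3K56ac and 2 input libraries for each genotype. The material analysed here was 1 merged list of 105600 peaks, with 0 columns of values per sample. It holds positions without heights, it does not separate Control from Sirt6mKO, and the libraries that were merged into it are not named. The study lists the reads of each library, but the list ties no peak to a library, so that no depth can be set behind a peak. All values below are therefore descriptions of the merged list, with no replicate error and no test of genotype. In sorted cells, a mark carried by fewer cells and a weaker mark in each cell cannot be told apart.

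Sine oculis proteins (the products of Six2, Six4 and Six5) are homeodomain transcription factors that bind MEF3 sites in muscle genes. EYA proteins do not bind DNA themselves. They join sine oculis proteins as coactivators and also carry phosphatase activity, whereas DACH proteins are corepressors related to SKI. Together with PAX proteins they form a network that acts upstream of the myogenic regulatory factors in the embryo and that remains in use in adult MuSCs and fibers. H3K56ac is found at active promoters and enhancers, and SIRT6 is one of the enzymes that remove it.

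The promoters of these genes differ in their content of CpG dinucleotides. RefSeq promoters (GRCm38.p6, 250 bp before to 50 bp after the start) matched 6 of the 8 genes, with 8 promoters in all, and each lay wholly under H3K56ac peaks (300 of 300 bp). No promoter was matched for Eya1 and Eya2. The share of all RefSeq promoters under peaks was not computed, so this count has no like background. At least 1 annotated start of transcription lay under a peak in 62.1% of coding genes. A set of 3 is shown, with CpG dinucleotides in capitals, because these carry the highest and the lowest ratio of observed to expected CpG (Six2 and Six5) and the narrowest peaks (Dach1). The positions are chr17:85688205-85688504 on the minus strand for Six2, chr7:19094294-19094593 on the plus strand for Six5 and chr14:98169716-98170015 on the minus strand for Dach1.
Six2: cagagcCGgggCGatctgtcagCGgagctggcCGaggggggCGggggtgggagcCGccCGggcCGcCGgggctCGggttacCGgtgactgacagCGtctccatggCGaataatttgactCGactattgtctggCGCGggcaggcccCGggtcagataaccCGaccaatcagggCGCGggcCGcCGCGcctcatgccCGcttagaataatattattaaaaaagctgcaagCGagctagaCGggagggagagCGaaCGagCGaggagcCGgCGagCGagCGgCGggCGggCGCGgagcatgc
Six5: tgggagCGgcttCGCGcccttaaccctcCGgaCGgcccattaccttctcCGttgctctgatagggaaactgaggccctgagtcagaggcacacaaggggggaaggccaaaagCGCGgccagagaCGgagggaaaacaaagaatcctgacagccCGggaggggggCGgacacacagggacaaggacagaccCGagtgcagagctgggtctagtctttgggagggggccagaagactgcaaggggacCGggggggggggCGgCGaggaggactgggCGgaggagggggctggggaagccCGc
Dach1: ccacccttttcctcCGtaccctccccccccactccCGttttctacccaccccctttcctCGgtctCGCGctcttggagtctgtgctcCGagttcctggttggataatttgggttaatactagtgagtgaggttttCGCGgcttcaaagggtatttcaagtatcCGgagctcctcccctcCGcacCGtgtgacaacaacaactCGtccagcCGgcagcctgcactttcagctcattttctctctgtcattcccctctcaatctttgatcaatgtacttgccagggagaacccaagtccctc

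The Six2 promoter held 37 CpG dinucleotides, the Six5 promoter 17 and the Dach1 promoter 13. The ratio of observed to expected CpG was 1.13 for Six2, 0.559 for Six5 and 0.657 for Dach1, beside a median of 0.384 and an upper quartile of 0.750 over 32851 RefSeq promoters. All 8 promoters were above that median, and their GC content ranged from 54.0% to 69.3% beside a median of 52.7%.

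The second set of sequences consists of the sites with the motif that sine oculis proteins bind. The core of the MEF3 site, TCAGGTT, was searched on both strands in the whole of each peak. It occurred 58 times in 43 of the 163 peaks found within 50 kb of the 8 genes, or 0.193 times per kb of peak, beside 0.162 times per kb over all 105600 peaks. In 5 of these matches the core was followed by TC to give the longer sequence TCAGGTTTC, a form that was picked after the matches had been seen. These 5 sites are printed on the strand that carries the motif, with the motif in capitals, 10 bases on either side and GRCm38 coordinates.
Six2 chr17:85646883-85646911 (-): ccaatattccTCAGGTTTCttacctgtca
Six4 chr12:73111631-73111659 (+): ttgttcagaaTCAGGTTTCaaaacaccgc
Six4 chr12:73113326-73113354 (+): atctggccgaTCAGGTTTCccccaggcca
Eya3 chr4:132653782-132653810 (+): cagaatattgTCAGGTTTCactaatggta
Eya4 chr10:23175961-23175989 (-): tcaacaggagTCAGGTTTCcctgattcct

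Both Six4 sites lay under the same peak of 6404 bp, 1 in exon 1 at 81 to 89 bp after the transcription start site (TSS) and 1 in intron 1 at 1776 to 1784 bp after it. The Eya3 site lay in intron 1 under a peak of 931 bp, and the Eya4 site lay in intron 3 under a peak of 4001 bp. The Six2 site lay 41353 bp downstream of the Six2 TSS, under a peak of 1268 bp whose nearest coding TSS belonged to another gene. The longer sequence occurred 0.0166 times per kb in the peaks of the 8 genes and 0.0144 times per kb in all peaks, so its density near these genes was close to that of the whole list. A match to these letters is not evidence of binding.

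To determine how much H3K56ac lies at each gene, peaks were counted over the gene body plus 50 kb on either side. The 8 windows held 163 peaks that covered 15.2% of 1856.3 kb. All 4 EYA genes together held 123 of these peaks and 19.4% of their windows was covered. The 3 sine oculis genes held 31 peaks with 21.1% covered, and Dach1 held 9 peaks with 1.95% covered. The counts and shares above are pooled over genes, so they are not like values to those of a single gene. The median coding gene had 7 peaks and 9.46% of its window covered, with quartiles of 2.02% and 19.2%. Gene by gene, the share was 32.6% for Eya1, 29.7% for Six4, 23.0% for Six5 and for Eya4, and 12.7% for Eya3. It was 9.82% for Six2, 8.00% for Eya2 and 1.95% for Dach1. The families differed in where the nearest gene was. The nearest coding TSS belonged to the gene itself for 114 of the 123 EYA peaks and for all 9 Dach1 peaks, but only for 8 of the 31 sine oculis peaks, since Six4 and Six5 lie among other genes. The widths of the 163 peaks, with a median of 969 bp and quartiles of 678 and 1959 bp, were near those of the whole list, with a median of 974 bp. Introns held 84 of the 163 peaks (51.5%), promoters 25, the downstream flanks 25, the upstream flanks 23 and exons 6. Promoters here include those of noncoding transcripts that start far inside Eya2 and Eya4. The same split was not computed for all peaks or for other coding genes, so these counts cannot be read as a trait of the 8 genes.

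All 8 genes had a promoter peak, defined as a peak within 3 kb of an annotated TSS, beside 67.8% of all coding genes. At least 1 annotated TSS lay directly under a peak in all 8 genes, beside 62.1% of coding genes. In 4 of the 8 genes the widest promoter peak reached 5 kb, beside 16.5% of coding genes. Of the 3 relatives Six3, Six6 and Dach2, 1 had a promoter peak and none reached 5 kb, so that 9 of the 11 genes had a promoter peak and 4 of 11 had one of 5 kb or more. The widths spanned a wide range. Eya1 had the widest promoter peak with 17470 bp, followed by Eya4 with 9062 bp, Six4 with 6404 bp and Six2 with 5952 bp. Below 5 kb followed Eya3 with 4862 bp, Six5 with 3786 bp, Eya2 with 3365 bp and Dach1 with 2017 bp. The median was 5407 bp, beside 3430 bp over the 14872 coding genes with a promoter peak. Only 104 of the other 14871 genes had a promoter peak at least as wide as that of Eya1, whereas 11747 had one at least as wide as that of Dach1.

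**Figure D1:**
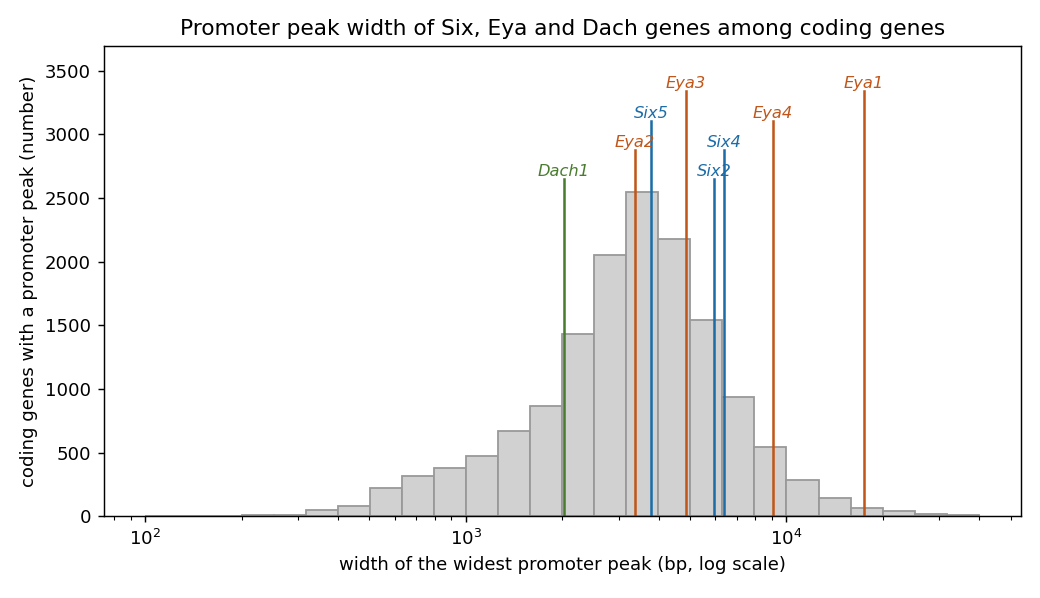
Width of the widest promoter peak. Grey bars give the number of coding genes in each width class on a log scale in bp, and vertical lines mark the 8 genes, whose height has no meaning. Eya1 stands in the right tail at 17470 bp, and Dach1, at 2017 bp, lies just below the lower quartile of 2242 bp.

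Six2 (ENSMUSG00000024134.11, chr17:85684277-85688274, minus strand), which is best known for the maintenance of nephron progenitors in the kidney, is a short gene of 3998 bp. A single peak of 5952 bp ran from -2450 to 3501 bp relative to the TSS, lay over both annotated TSSs and covered 88.1% of the gene body. Beyond it, the window was nearly empty. A pair of adjoining peaks of 1455 and 1536 bp lay between -42353 and -39357 bp, and the 1268-bp peak that holds the MEF3 match described above lay downstream. No other coding TSS lay in the window. The stretch without any peak downstream of the promoter peak was 37.8 kb long, and 9.82% of the window was covered, close to the middle of all coding genes (percentile 51.1).

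Six4 (ENSMUSG00000034460.9, chr12:73099609-73113456, minus strand), a gene expressed in muscle progenitors, was covered over 57.0% of its 13848 bp. The 6404-bp peak ran from -381 to 6022 bp and lay over both TSSs, all of intron 1 and part of intron 2. Peaks of 1322 and 523 bp followed further into the gene, and a narrow peak of 321 bp lay just upstream, between -786 and -466 bp. Before the midpoint of the gene 97.0% of the sequence was covered, and after it 17.1%. A group of 6 peaks, of which the widest measured 6350 and 3978 bp, lay between -49861 and -30969 bp. The nearest coding TSS to each of these 6 peaks was that of Mnat1, a subunit of the CDK-activating kinase. At the other edge the window cut into a peak of 23999 bp that lies over the TSS of a neighboring coding gene. Coverage of the window was accordingly 29.7% with all 15 peaks and 7.53% with the 4 peaks that were nearest to Six4 itself.

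Six5 (ENSMUSG00000040841.5, chr7:19094594-19098549, plus strand) lies directly downstream of Dmpk, the gene whose repeat expansion causes myotonic dystrophy. Its only own peak measured 3786 bp, ran from -632 to 3153 bp, covered both introns completely and 79.7% of the gene body. Of the 12 peaks in its window, 11 were nearest to another gene, and 6 other coding genes (Dmpk, Dmwd, Fbxo46, Gm4969, Rsph6a and Sympk) had a TSS within 50 kb. A 4061-bp peak over a Dmpk TSS ended at -8424 bp relative to the Six5 TSS. The window was covered over 23.0% with all peaks and over 3.64% with the Six5 peak alone.

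In each of these 3 genes, 1 peak ran from the promoter into the gene. That of Six5, with 3786 bp, did not reach 5 kb and was at percentile 57.5 of the promoter peak widths. Among coding genes within 20% of the same length, coverage of the gene body put Six2 at percentile 92.6 (1405 genes, median 5.66%), Six4 at 95.7 (2327 genes, median 12.5%) and Six5 at 90.1 (1357 genes, median 8.12%). These sets include genes without any peak, and the lower quartile was 0% in each. In genes as short as Six2 and Six5, 1 promoter peak can cover most of the body, so these percentiles partly restate that a promoter peak is present.

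**Figure D2:**
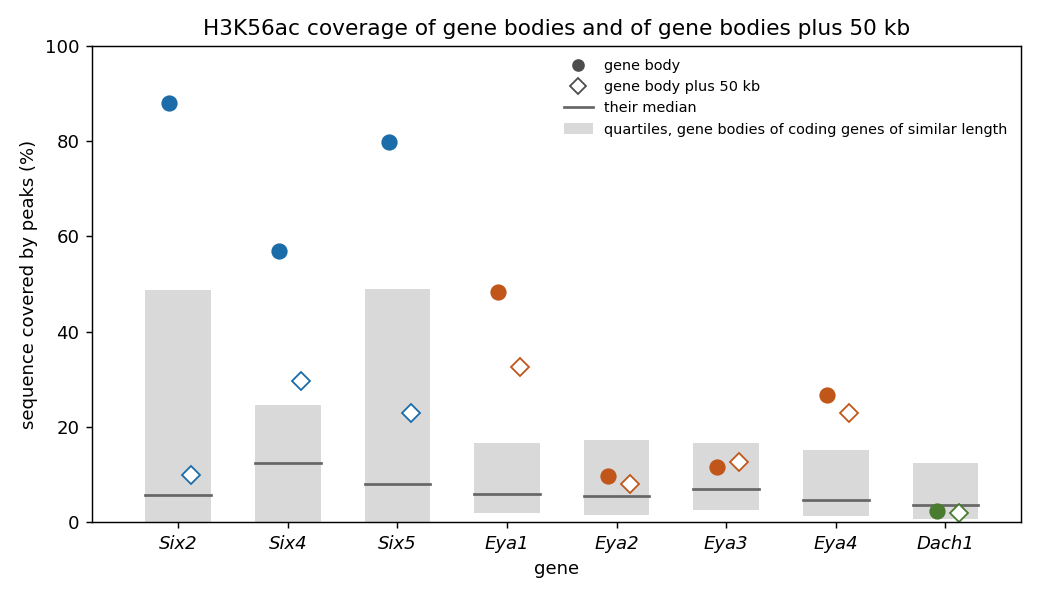
Share of sequence under H3K56ac peaks, in percent, for the 8 genes. Filled circles are gene bodies, open diamonds are gene bodies plus 50 kb, and grey boxes with a line give the quartiles and the median for bodies of coding genes within 20% of the same length. Circles of Six2, Six4, Six5, Eya1 and Eya4 lie above their boxes, those of Eya2 and Eya3 lie inside, and that of Dach1, at 2.35%, lies below the median of its box.

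Eya1 (ENSMUSG00000025932.14, chr1:14168954-14310235, minus strand), the coactivator gene that is mutated in branchio-oto-renal syndrome, had the highest coverage of any of the 4 EYA genes. Its window held 33 peaks, all nearest to Eya1, and no other coding TSS. The 17470-bp promoter peak ran from -3513 to 13956 bp and lay over 8 of the 9 annotated TSSs. The ninth, of the short coding transcript Eya1-208, lay 78708 bp into the gene and 214 bp from the nearest peak. Only this promoter peak reached into the 50 kb upstream, where the remaining 46.5 kb were free of peaks. Inside the gene, the peaks lay in blocks. Introns 1 and 2 of transcript Eya1-201 were covered completely, and intron 3 over 88.8% by 7 peaks. Intron 9 was covered over 75.3% by 6 peaks, intron 11 over 88.1% by 8 peaks up to 7840 bp wide, and intron 12 over 29.6%. When peaks less than 1 kb apart were joined, the promoter peak and the 6 peaks after it became 1 region of 31980 bp. Altogether 48.3% of the 141.3-kb gene body was covered, at nearly the same share before the midpoint (49.4%) and after it (47.1%). Of 872 coding genes of similar length, 46 reached this share, and the median was 6.01%.

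Eya4 (ENSMUSG00000010461.15, chr10:23102963-23350786, minus strand), which is linked to hereditary hearing loss and cardiomyopathy, held 51 peaks, more than any other of the 8 genes. All 51 were nearest to Eya4. The promoter peak of 9062 bp ran from -2070 to 6991 bp and lay over 4 TSSs between -650 and 249 bp. Another TSS, of the 5-exon coding transcript Eya4-203 at 113061 bp, lay under a separate peak of 1924 bp. The other 3 TSSs belonged to noncoding transcripts and lay under no peak. Most peaks were in the first introns of transcript Eya4-206, with 9 peaks in intron 1 (42.6% covered), 16 in intron 2 (25.0%) and 15 in intron 3 (42.6%). The widest peak away from the promoter, 5763 bp, lay in intron 3, as did the MEF3 match printed above. Another wide peak of 4776 bp lay upstream between -47148 and -42373 bp, after 40.3 kb without any peak. Coverage of the 247.8-kb body was 26.6%, beside a median of 4.70% over 437 coding genes of similar length (percentile 84.7).

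Eya2 (ENSMUSG00000017897.18, chr2:165595032-165771727, plus strand), an EYA gene active in developing muscle, had a different arrangement, with 22 narrow peaks between 346 and 3365 bp and none of 5 kb. Its coding transcripts start at 2 promoters. The TSS of Eya2-202 lay under a peak of 468 bp. On the scale of Eya2-201 this TSS is at -60266 bp. The TSS of Eya2-201 itself lay 47 bp beyond the end of a 955-bp peak. Of the 6 TSSs, only that of Eya2-202 was under a peak. The widest promoter peak of 3365 bp lay in intron 10 near the TSS of the noncoding transcript Eya2-204, and with coding transcripts only, the widest promoter peak measured 955 bp. The body was covered over 5.28% before its midpoint and over 14.2% after it, mainly by 7 peaks in intron 9, 2 in intron 5 and 2 in intron 10. No peak was found in the 50 kb downstream. Coverage of the body was 9.73%, beside a median of 5.52% over 674 genes of similar length (percentile 62.5).

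Eya3 (ENSMUSG00000028886.15, chr4:132638987-132724765, plus strand), another coactivator gene of the family, carried its peaks at 1 end. The promoter peak of 4862 bp ran from -3589 to 1272 bp and lay over 8 of the 11 distinct TSS positions. Intron 1 held 8 peaks and was covered over 41.0%. Before the midpoint of the gene 23.1% of the sequence was covered, and after it no peak was found. The stretch without peaks, 69.8 kb, began in intron 3 and ended at the peaks of the next genes downstream, Xkr8, Smpdl3b and Rpa2, to which 7 of the 17 peaks in the window were nearest. The body of Eya3 was covered over 11.5%, beside a median of 7.03% over 1308 genes of similar length (percentile 65.3).

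Dach1 (ENSMUSG00000055639.16, chr14:97786853-98169765, minus strand), the corepressor gene, was the longest of the 8 genes with 382.9 kb and had the lowest coverage. It held 9 peaks of 483 to 2017 bp, which covered 2.35% of the body, beside a median of 3.63% over 279 genes of similar length (percentile 42.7). The promoter carried 2 peaks of 2017 and 562 bp that were separated by 83 bp. The annotated coding TSS, at 98169543, lay in this gap (chr14:98169518-98169600), 26 bp from the nearer peak. The start used by RefSeq lies 222 bp further upstream, where the noncoding transcript Dach1-203 also starts, and it lay under the 562-bp peak. The Dach1 promoter sequence printed above runs from 250 bp before that start to 50 bp after it. The GC content of the gap was 62.7%, and it held 10 CpG dinucleotides. Inside the gene, 4 peaks besides the promoter lay in intron 1, which is 149.5 kb long, and 3 peaks lay in intron 7. The 197.4 kb between these groups held no peak, and neither flank held a peak other than that of the promoter.

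**Figure D3:**
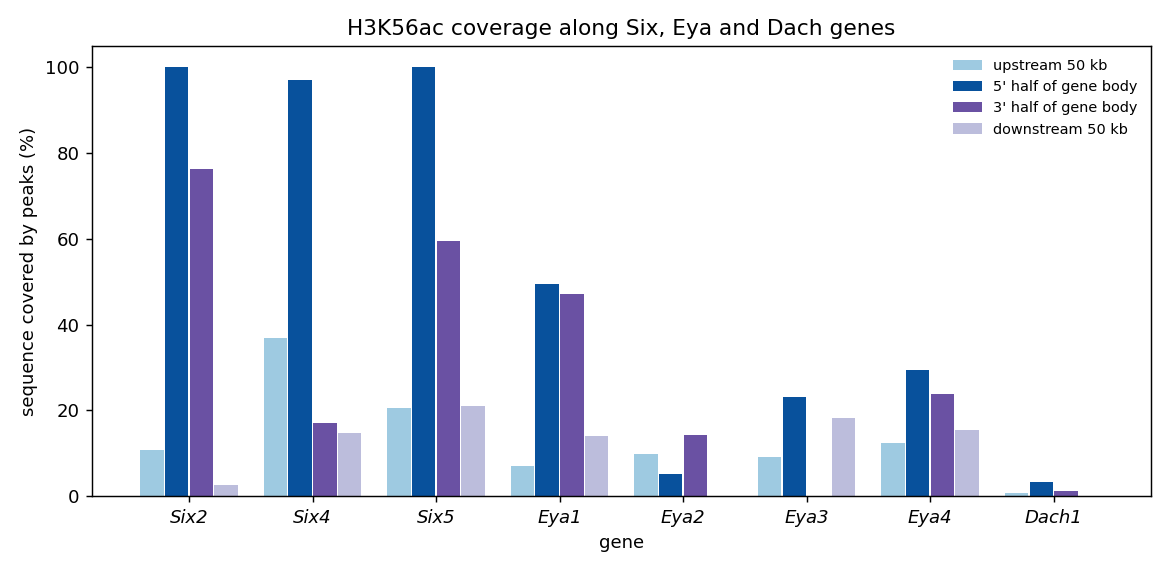
Share of sequence under H3K56ac peaks, in percent, in 4 segments of each gene, from the 50 kb upstream to the 50 kb downstream, with the gene body cut at its midpoint. Six2, Six4 and Six5 are covered most before the midpoint, Eya1 and Eya4 are covered on both sides of it, Eya3 has 0 after it, and Eya2 is the only 1 of the 8 genes with more coverage after the midpoint (14.2%) than before it (5.28%).

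Near the start of transcription the order of the genes was that of the promoter peak widths, except that Six2 and Six4 changed places. Both measures count largely the same peaks, so this order is not a separate result. For Eya2 they do not, since its widest promoter peak begins 102598 bp after the main TSS. Within 5 kb of the main TSS, Eya1 was covered over 85.1%, Eya4 over 70.7%, Six2 over 59.5%, Six4 over 57.0%, Eya3 over 54.1%, Six5 over 37.9%, Eya2 over 34.9% and Dach1 over 25.8%. The main TSS lay under a peak in 6 of the 8 genes, with Eya2 and Dach1 as the exceptions, beside 57.7% of the coding genes with a protein-coding transcript. Over all transcripts, 28 of 41 distinct TSS positions (68.3%) lay under a peak, beside 53.2% of the distinct TSS positions of all coding genes. Many of these positions share a gene and a peak.

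The sequence of the peaks was also compared with that of the whole list. The 163 peaks had a median GC content of 42.3% with quartiles of 39.2% and 47.7%, beside a median of 45.8% over all peaks. In the central 300 bp of each peak, TCAGGTT was found in 9 of 163 peaks (5.52%), beside 4.76% of all peaks. The E-box CAGCTG, which myogenic factors bind, was found in 25 (15.3%), beside 17.0%. The AP-1 site TGAGTCA, whose reverse complement is TGACTCA, was found in 8 (4.91%), beside 5.45%, and TATAAA in 26 (16.0%), beside 16.7%. All motifs were searched on both strands. Of the RefSeq promoters of the 8 genes, only 1 Six4 promoter held TCAGGTT, which occurs in 4.07% of all RefSeq promoters, and only that of Six5 held TGAGTCA, which occurs in 5.20%.

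Other genes of the network were taken from lists by function. Over all coding genes, 67.8% had a promoter peak and 16.5% had one of at least 5 kb, and the counts below are read beside these shares. Of the 3 other family genes listed, Six3 had promoter peaks, the wider of 772 bp, whereas Six6 and Dach2 had none, and the window of Dach2 held 0 peaks. All 5 corepressors listed (Ski, Skil, Ncor1, Sin3a and Hdac3) had a promoter peak. Ski, the founding relative of DACH proteins, had one of 17586 bp, close to that of Eya1, and 77.2% of its window was covered. The partners Sobp and H2afx had promoter peaks of 7520 and 2049 bp. All 6 myogenic factors had one, from 1581 bp at Myog to 30239 bp over the neighbors Myf5 and Myf6. The 5 fast-fiber genes that sine oculis proteins regulate (Aldoa, Actn3, Pvalb, Tnnt3 and Myh4) had promoter peaks of 1024 to 3628 bp, and none reached 5 kb. Among markers of the sorted cells, all 8 MuSC genes (Pax7, Myf5, Calcr, Itga7, Cd34, Vcam1, Cdh15 and Megf10) had a promoter peak that reached 5 kb. Of the markers of cells removed by the sort, Pecam1 had a promoter peak and Ptprc and Ly6a had none. Of those of other muscle-resident cells, Pdgfra had one and Cdh5 and Adgre1 had none. A promoter peak is not a measure of expression.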

How the data were processed

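ChIP-seq for H3K56ac was carried out on freshly isolated MuSCs of Control and Sirt6mKO mice (8 libraries in 4 groups of 2). Per the study's methods, the authors trimmed the reads, aligned them with bowtie to mm10 keeping single alignments, removed duplicates with Picard, called peaks with MACS2, removed blacklisted regions and merged overlapping peaks with GenomicRanges. The deposited list gives, besides other fields, the chromosome, start and end of each peak and a score that was 0 in every row and was not used. Merging widens and fuses peaks, so widths and counts describe the merged list. The study reports more H3K56ac peaks in Sirt6mKO than in Control MuSCs. It also describes the peaks after loss of Sirt6 as broader than those of other histone marks. How much of the widths and counts given here comes from either genotype cannot be told from the merged list. Which libraries entered the merge is not given in the sources used here.

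Genes came from GENCODE vM21 on GRCm38 (mm10). The main transcript was the coding transcript with most exons, and overlaps required 1 bp. All 8 genes are described, whatever their values, with neighbors whose TSS lies in a window and the lists by function. Members and lists were chosen with earlier results of these data known. No test was made, since the list separates no samples. Alternatives were flanks of 10 kb or 0 kb, promoters of 1 kb, coding transcripts only, peaks of at least 500 bp, peak midpoints, joining within 1 kb and a length window of 50%. Counting only peaks nearest to the gene, and only promoter peaks over a TSS, was added after seeing the data. Python 3.11.15, NumPy 2.4.6, pysam 0.24.0, samtools 1.23.1 and matplotlib 3.10.9 were used, and the functions were tested on simulated peaks.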

Additional observations from a re-analysis of the deposited data

How the results depend on the processing

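The number of peaks at the 8 genes, 163, stayed between 114 and 161 with flanks of 10 kb, gene bodies only, peaks of at least 500 bp, peak midpoints or peaks nearest to the gene itself (131, an alternative added after seeing the data), and fell to 84 when peaks less than 1 kb apart were joined. The covered share of 15.2% became 16.9% with flanks of 10 kb, 17.5% over gene bodies, 14.7% with peaks of at least 500 bp and 16.7% after joining. All 8 genes had a promoter peak under the 4 alternatives tried. The median of the widest promoter peaks stayed at 5407 bp under 4 alternatives and was 6686 bp after joining, which took Six4 to 9540 bp, Eya1 to 31980 bp, Eya3 to 7419 bp, Eya4 to 13775 bp and Dach1 to 2662 bp. With coding transcripts only, Eya2 went from 3365 to 955 bp. With only peaks over an annotated TSS, an alternative chosen after seeing the data, Eya2 went to 468 bp and Dach1 from 2017 to 562 bp. The median covered share of gene bodies, 37.4%, was 36.5% with peaks of at least 500 bp and 41.6% after joining. Comparison with genes within 50% of the same length moved the percentiles by at most 1.87 points. The list gives no peak height and ties no peak to a library, so how far the depth of the libraries limits these values was not analysed here. No paired analysis was possible because the list has no values per sample and no test was made.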
